A study of Mus musculus with 11 samples.

Results

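The matrix metalloproteinases (MMPs) and their inhibitors described here were 7 genes of the 12932 in the normalized expression table. They were the secreted or membrane-bound MMPs Mmp12, Mmp8, Mmp14 and Mmp19, the related membrane protease Adam8, and the tissue inhibitors Timp2 and Timp1. They were selected by gene symbol, and all 7 had a row in the table.

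The libraries were bulk RNA-seq of sorted alveolar macrophages (AMs), the resident phagocytes of the airspaces, from 9-week-old C57BL/6J mice. Mature AMs (mAMs, CD11b- SiglecF+) came from Rxrab fl/fl control mice (4 libraries, mAM_WT) and from CD11cCre+ Rxrab fl/fl mice (4 libraries, mAM_KO). Immature AMs (ImmAMs, CD11b+ SiglecF+) came from CD11cCre+ Rxrab fl/fl mice alone (3 libraries, Imm_KO). In these mice Cre recombinase, driven by Cd11c regulatory sequence, deletes floxed Rxra and Rxrb, which encode the nuclear receptors RXRα and RXRβ, in cells with Cd11c activity. The controls carried the same floxed alleles without Cre. Both sexes were used in the study and the labels do not give the sex of a library. The labels name digested lung as the source and the study's methods name bronchoalveolar lavage. Replicates were individual biological samples, and mAM_KO replicate 4, which is not among the libraries the study lists for its comparison of mAMs, was left out of the fit and is given separately. No ImmAMs of control mice were sequenced, so for ImmAMs the loss of RXR and the immature state cannot be told apart.

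MMPs are zinc-dependent endopeptidases that are made as inactive precursors and, once activated, cut extracellular matrix and cell-surface proteins. TIMPs bind the active site of MMPs and block them, and TIMP2 also takes part with MMP14 in activating the MMP2 precursor on the cell surface. Macrophages are a known source of these proteases in the lung, where MMP12 is known as macrophage elastase.

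The libraries held 16659960 to 37873532 recovered reads. Values are CPM, read counts scaled to the size of the library. All 12 AM marker genes tried were in the table, and Chil3 alone made up 60.2 to 85.6% of their sum. The full sum overlapped, at 21882 to 28292 CPM in control mAMs and 23839 to 25617 in ImmAMs. Chil3 was higher in all ImmAM libraries (20272 to 21939 CPM) than in any control mAM library (13182 to 18297). Pparg overlapped, at 174 to 220 CPM in control mAMs and 215 to 219 in ImmAMs. Without Chil3 the sum was 8699 to 9995 CPM in control mAMs, 8306 to 9326 in RXR-deficient mAMs and 3567 to 3678 in ImmAMs, and 10 of the 12 were lower in all ImmAM libraries than in any control mAM library. Marco stood at 309.99 to 377 CPM in control mAMs and 10.9 to 13.8 in ImmAMs, and Siglecf at 244 to 264 and 19.3 to 19.7. Itgam, which encodes CD11b, was at 3.52 to 3.85 and 168 to 174 CPM. Whole-gene levels of Rxra overlapped between control (310.3 to 380 CPM) and RXR-deficient mAMs (334 to 351). Those of Rxrb were 51.4 to 72.1 and 39.3 to 52.8 CPM, and values per gene cannot show the loss of single exons.

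Mmp12 and Mmp8 are neighbours in the MMP gene cluster of chromosome 9 (GRCm38, GENCODE vM21), on the same strand, Mmp12 at chr9:7344381-7369499 and Mmp8 at chr9:7558456-7568485. They lay 188956 bases apart, with Mmp3, Mmp1a and Mmp10 between them. Of the 10 Mmp genes of the cluster, only these 2 were analysed here. Their promoters are shown because both genes were higher in RXR-deficient mAMs and ImmAMs. The windows are from RefSeq (GRCm38.p6, plus strand) and run from 250 bases before the annotated start to 30 bases after it. In capitals are an AP-1 motif (TGANTCA), a PU.1 motif (GAGGAAGT or its reverse complement) and TATA letters (TATAAA or its reverse complement).
Mmp12 (chr9:7347124-7347403): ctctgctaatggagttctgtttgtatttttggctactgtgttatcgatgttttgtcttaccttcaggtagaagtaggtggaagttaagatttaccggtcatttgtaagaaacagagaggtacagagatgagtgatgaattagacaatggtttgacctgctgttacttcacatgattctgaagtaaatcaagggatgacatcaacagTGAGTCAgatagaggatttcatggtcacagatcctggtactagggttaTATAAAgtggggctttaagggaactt
Mmp8 (chr9:7558179-7558458): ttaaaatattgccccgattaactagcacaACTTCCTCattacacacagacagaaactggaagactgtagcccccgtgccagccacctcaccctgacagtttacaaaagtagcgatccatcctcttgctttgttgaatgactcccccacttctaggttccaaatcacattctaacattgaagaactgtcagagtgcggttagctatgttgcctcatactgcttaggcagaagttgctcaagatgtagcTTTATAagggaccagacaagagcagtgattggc

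The AP-1 motif of Mmp12 started 44 bases before the annotated start, and the PU.1 motif of Mmp8 started 221 bases before its start. The TATA letters of Mmp12 started 4 bases after the annotated start and those of Mmp8 3 bases before it. Whether they act as TATA boxes at these starts was not tested. Motifs were searched on both strands of all 32851 promoter windows of this length, of which 7.46% held the AP-1 motif, 2.82% the PU.1 motif and 13.1% the TATA letters. A second annotated start of Mmp12, farther upstream, had a PU.1 motif 88 bases before it. Spaced repeats of AGGTCA were also searched, DR1 with 1 base and DR4 with 4 bases of any kind between the repeats, which RXR heterodimers are known to bind. Exact DR1 and DR4 letters occurred in 0.0365% and 0.0152% of all windows and in none of the 7 windows that matched 6 of the 7 genes. With shares this low, almost any 7 windows would have none, so this carries no information on RXR binding. The study describes RXRα binding near Mmp8, which it counts among AM-core genes, and places most RXRα peaks outside promoters. Mmp19 had no entry.

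Mmp12 encodes macrophage elastase, which degrades elastin. It stood at 6.93, 4.89, 5.12 and 3.51 CPM in control mAMs 1 to 4, at 58.1, 26.1 and 74.2 CPM in RXR-deficient mAMs 1 to 3, and at 1627, 1547 and 1707 CPM in ImmAMs 2 to 4. The 3 groups formed 3 separate steps, with no overlap between any pair of groups. Mmp12 was 9.71-fold higher in RXR-deficient than in control mAMs (log2 fold change 3.28 ± 0.29 (SE), p-adj = 1.11e-04, limma). It was 327-fold higher in ImmAMs than in control mAMs (8.35 ± 0.29, p-adj = 2.48e-10, limma), the 9th largest rise of the 12889 genes tested. Between ImmAMs and RXR-deficient mAMs the log2 difference was 5.07 ± 0.31 (p-adj = 6.91e-08, limma). These comparisons share libraries, so their fold changes are not independent of each other.

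Mmp8 encodes neutrophil collagenase, which cuts fibrillar collagens. It measured 27.7, 31.2, 21.5 and 22.6 CPM in control mAMs 1 to 4, 158, 72.3 and 303 CPM in RXR-deficient mAMs 1 to 3, and 887, 851 and 914 CPM in ImmAMs 2 to 4. It followed the order of Mmp12 without overlap, and the RXR-deficient mAMs were the most spread group, with an SD of 116 CPM around a mean of 178 (n = 3). Mmp8 was 5.95-fold higher in RXR-deficient than in control mAMs (log2 fold change 2.57 ± 0.33 (SE), p-adj = 0.00197, limma). In ImmAMs it was 34.7-fold higher than in control mAMs (5.12 ± 0.33, p-adj = 5.73e-08, limma) and 5.84-fold higher than in RXR-deficient mAMs (2.55 ± 0.36, p-adj = 9.67e-05, limma). The study reports Mmp8 as an AM-core gene whose RNA rose as recruited monocytes became AMs after AM depletion. Those mice did not carry the RXR deletion. Here Mmp8 was higher in both RXR-deficient groups than in control mAMs, and the reason for this difference was not tested.

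Because Mmp8 is best known from neutrophils, neutrophil genes were examined beside it. Of 13 neutrophil markers 6 had values here, and their summed level was 31.5 to 39.8 CPM in control mAMs, 31.9 to 41.2 in RXR-deficient mAMs and 53.1 to 63.0 in ImmAMs. Csf3r alone was at 19.5 to 33.1, 17.4 to 29.9 and 33.5 to 36.2 CPM in these groups and made up most of the sum. S100a8, an abundant neutrophil transcript, was at 2.77 to 6.27, 3.74 to 7.27 and 10.7 to 16.6 CPM in these groups. S100a9 and Ltf, at 3.84 CPM or less, were also higher in all ImmAM libraries than in any control mAM library. The same held for Csf3r and for Cxcr2 (2.43 to 3.66 CPM in control mAMs and 3.84 to 5.13 in ImmAMs), and Retnlg overlapped. Cxcr2 in RXR-deficient mAMs, at 2.74 to 5.40 CPM, overlapped both of these groups. The ranges of the mAM groups overlapped for the sum and for S100a8, and those for Mmp8 did not. Both the sum and S100a8 were higher in all ImmAM libraries than in any mAM library of the fit. All cells were sorted as SiglecF+, and neutrophils in general lack SiglecF, but a sort gate does not measure carried-over RNA. The part of neutrophil RNA in the Mmp8 level of any group was not tested.

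Mmp14 encodes a membrane-anchored MMP that activates the MMP2 precursor. Its levels were 1.70, 0.704, 0.544 and 1.55 CPM in control mAMs 1 to 4 and 2.98, 0.998 and 2.69 CPM in RXR-deficient mAMs 1 to 3. ImmAMs 2 to 4 had 59.998, 75.1 and 60.3 CPM. The ImmAM libraries stood far above all mAM libraries, and both mAM groups overlapped. The difference between the mAM groups did not pass the threshold (log2 fold change 0.996 ± 0.44 (SE), 95% interval 0.04 to 1.95, p-adj = 0.192, limma). Mmp14 was 64.6-fold higher in ImmAMs than in control mAMs (6.01 ± 0.44, p-adj = 1.72e-07, limma) and 32.4-fold higher than in RXR-deficient mAMs (5.02 ± 0.47, p-adj = 3.02e-06, limma). With 1 CPM added before the log, the log2 fold changes in ImmAMs were 4.99 and 4.41, and both still passed.

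Mmp19 encodes a secreted MMP that cuts basement membrane components, and it went the other way in ImmAMs. Its levels were 204, 268, 198 and 182 CPM in control mAMs 1 to 4, 348, 255 and 265 CPM in RXR-deficient mAMs 1 to 3, and 128, 140 and 135 CPM in ImmAMs 2 to 4. All 3 ImmAM libraries were below every mAM library, and the mAM groups overlapped through control replicate 2. Mmp19 was 1.57-fold lower in ImmAMs than in control mAMs (log2 fold change -0.65 ± 0.13 (SE), p-adj = 0.00109, limma) and 2.13-fold lower than in RXR-deficient mAMs (-1.09 ± 0.14, p-adj = 3.93e-05, limma). Between the mAM groups the log2 fold change of 0.44 ± 0.13 did not pass (p-adj = 0.0654, limma). It passed without control replicate 2 (p-adj = 0.0266, limma).

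Adam8 encodes a membrane protease of leukocytes that sheds cell-surface proteins. Its levels were 0.806, 0.664, 0.244 and 0.958 CPM in control mAMs 1 to 4, 2.52, 1.38 and 1.91 CPM in RXR-deficient mAMs 1 to 3, and 33.4, 31.1 and 22.7 CPM in ImmAMs 2 to 4. The 3 groups did not overlap, but the mAM values rested on 6 to 30 reads in control libraries and 32 to 54 in RXR-deficient ones. Adam8 was 48.2-fold higher in ImmAMs than in control mAMs (log2 fold change 5.59 ± 0.42 (SE), p-adj = 2.24e-07, limma) and 15.3-fold higher than in RXR-deficient mAMs (3.93 ± 0.45, p-adj = 1.74e-05, limma). Between the mAM groups it was 3.16-fold higher in RXR-deficient mAMs (1.66 ± 0.42, p-adj = 0.0436, limma). This last call was lost when any of 6 libraries was left out (control replicate 2, RXR-deficient mAM replicates 1 and 3, or any ImmAM library), with p-adj of 0.0644 to 0.139 (limma). With 1 CPM added before the log, the log2 fold change was 4.17 in ImmAMs and 0.82 in RXR-deficient mAMs against control mAMs, and both still passed.

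**Figure D1:**
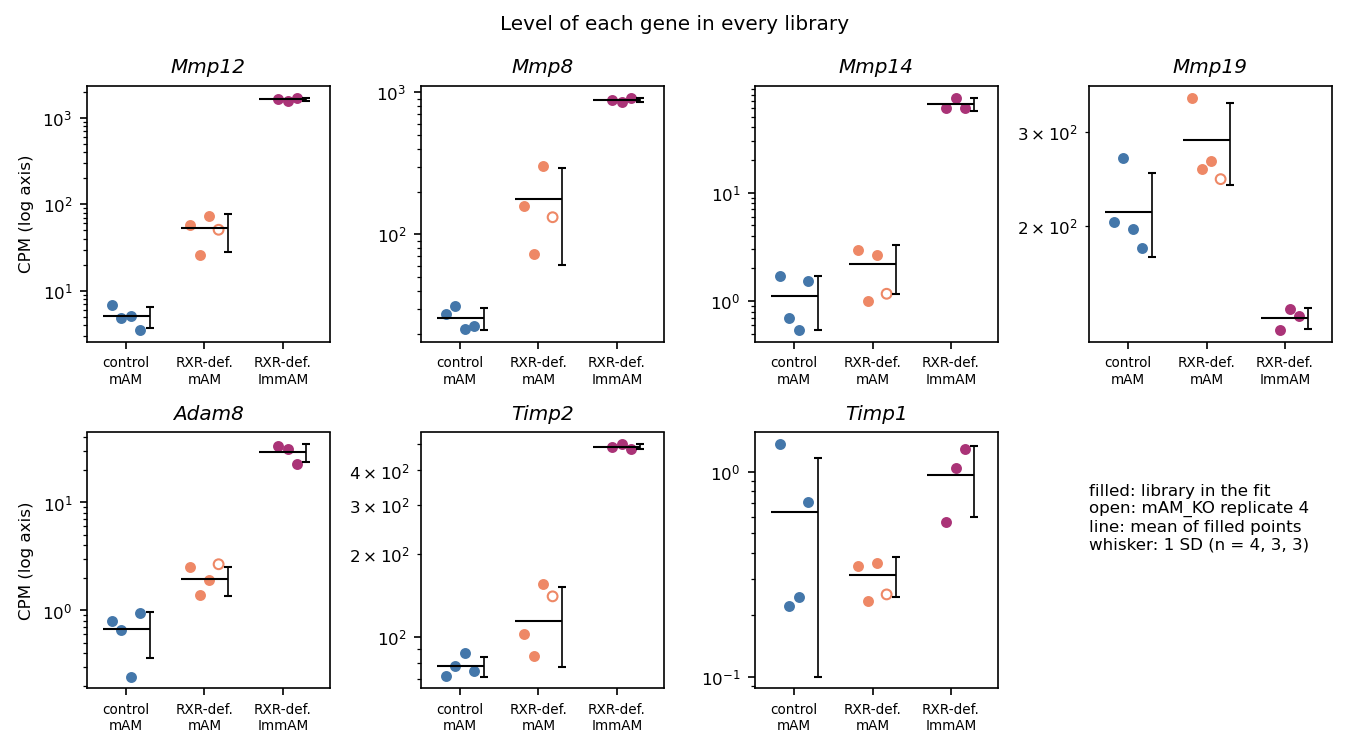
CPM on a log axis for each of the 7 genes in the 11 libraries, by group (control mAM, RXR-deficient mAM, RXR-deficient ImmAM). Lines are means and whiskers 1 SD of the libraries in the fit (n = 4, 3 and 3), and the open point is mAM_KO replicate 4. Mmp12, Mmp8 and Adam8 form separate steps, Mmp14 and Timp2 are far higher in ImmAMs alone, Mmp19 is lowest in ImmAMs, and Timp1 is low throughout.

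Timp2 encodes a broad MMP inhibitor. Its levels were 72.0, 78.0, 87.2 and 75.3 CPM in control mAMs 1 to 4, 102, 84.9 and 155 CPM in RXR-deficient mAMs 1 to 3, and 486, 498 and 478 CPM in ImmAMs 2 to 4. ImmAMs stood apart from both mAM groups, which overlapped because RXR-deficient replicate 2 was below control replicate 3. Timp2 was 6.26-fold higher in ImmAMs than in control mAMs (log2 fold change 2.65 ± 0.15 (SE), p-adj = 1.98e-08, limma) and 4.41-fold higher than in RXR-deficient mAMs (2.14 ± 0.16, p-adj = 4.67e-07, limma). Between the mAM groups the log2 fold change was 0.50 ± 0.15 (p-adj = 0.0744, limma), and without RXR-deficient replicate 2 it was 0.69 (p-adj = 0.0113, limma).

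Timp1, an inhibitor induced by many inflammatory stimuli, was close to the lower limit of the table. It had 51, 5, 6 and 14 reads in control mAMs 1 to 4 (1.36, 0.221, 0.244 and 0.712 CPM), 7, 5 and 6 reads in RXR-deficient mAMs 1 to 3 (0.346, 0.234 and 0.360 CPM), and 9, 22 and 24 reads in ImmAMs 2 to 4 (0.566, 1.04 and 1.29 CPM). Control replicate 1, the deepest library, had the highest value of all, and no comparison passed the threshold. The log2 fold changes were -0.64 ± 0.74 (SE) for RXR-deficient against control mAMs (p-adj = 0.636, limma), 0.93 ± 0.74 for ImmAMs against control mAMs (p-adj = 0.320, limma) and 1.57 ± 0.79 for ImmAMs against RXR-deficient mAMs (p-adj = 0.137, limma).

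In RXR-deficient against control mAMs, 3 of the 7 genes passed, all higher (Mmp12, Mmp8 and Adam8), where 4.84% of the 12889 genes tested passed, 2.25% as higher and 2.59% as lower. The median log2 fold change of the 7 was 0.996, beside -0.0019 over all genes tested. The libraries of both groups did not overlap for these 3 genes, as for 20.1% of all genes in either direction and 8.92% as higher. The count was 6 without RXR-deficient replicate 2, which had the lowest level of that group for Mmp12, Mmp8, Mmp14, Adam8 and Timp2, and 5 with DESeq2 on recovered reads, which also called Mmp19 and Timp2. It was 2 without RXR-deficient replicate 1 or 3, without any single ImmAM library, with limma-voom, without a variance trend or with both groups alone, each time without Adam8.

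In ImmAMs against control mAMs, 6 of the 7 genes passed (5 higher and Mmp19 lower), where 48.1% of all genes tested passed, 22.8% higher and 25.3% lower. All 6 also had no overlap between libraries, as did 24.9% of all genes as higher and 26.4% as lower. The median log2 fold change of the 7 was 5.12, beside -0.0025 over all genes. In ImmAMs against RXR-deficient mAMs the same 6 passed in the same directions, where 37.9% of all genes passed, 17.7% as higher and 20.2% as lower. The median was 2.55 beside -0.0053. For all 7 genes the libraries of these groups did not overlap, as for 24.8% of all genes as higher and 26.3% as lower. Adam8 passed the filter of 1 CPM in 3 libraries only through the RXR-deficient groups, in which it was higher, and Timp1 and Mmp14 reached 1 CPM in 3 and 7 of the 10 libraries.

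**Figure D2:**
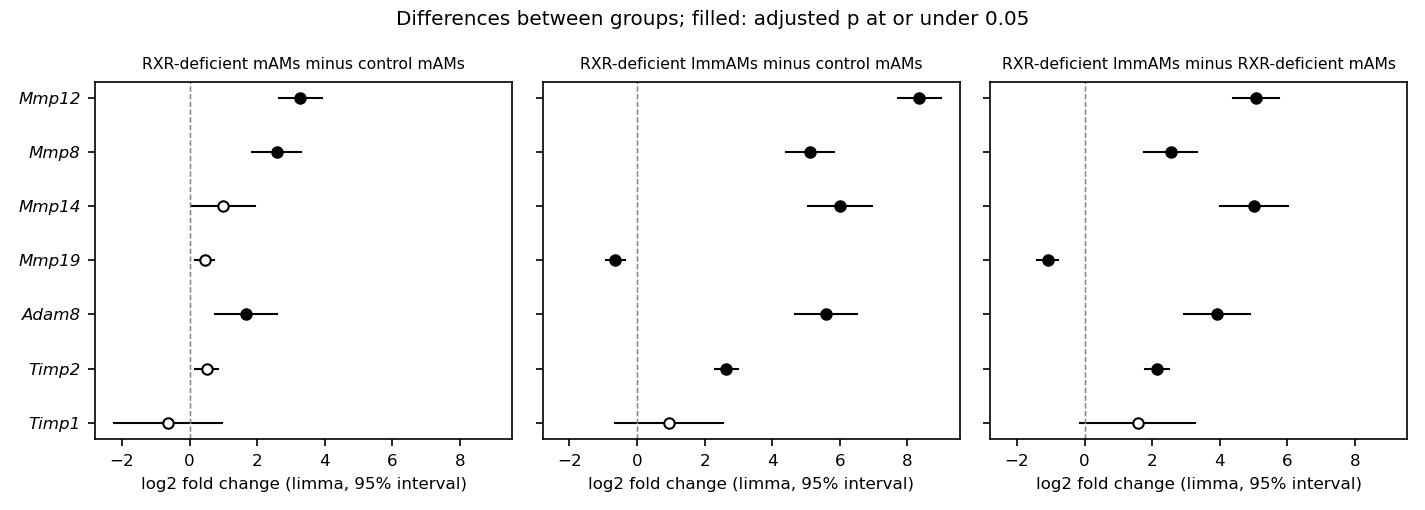
Log2 fold change of each gene with its 95% interval (limma) in RXR-deficient mAMs against control mAMs, ImmAMs against control mAMs, and ImmAMs against RXR-deficient mAMs. Filled points passed an adjusted p of 0.05. Mmp12, Mmp8 and Adam8 lie above 0 in all 3 panels, and Mmp19 lies below 0 in both ImmAM panels.

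Levels of different genes were compared per kilobase of the principal transcript. In control mAMs the order of mean levels was Mmp19 (62.6 CPM per kb), Timp2 (21.1), Mmp8 (10.6) and Mmp12 (1.42), each apart from the next in all libraries, and then Timp1 (0.719), Mmp14 (0.433) and Adam8 (0.214), whose ranges overlapped their neighbours'. Mmp19 (85.0) and Mmp8 (73.3) overlapped at the top in RXR-deficient mAMs, where Timp2 (30.8) overlapped Mmp8 and stood above Mmp12 (14.6). ImmAMs had the order Mmp12 (451), Mmp8 (365), Timp2 (131), Mmp19 (39.5), Mmp14 (25.1), Adam8 (9.32) and Timp1 (1.09), each apart from the next. The order of Mmp12 and Mmp8 in ImmAMs depended on the length used. Mmp12 was 1.24 ± 0.02 (SD, n = 3) times Mmp8 with a principal transcript of 3607 bases for Mmp12, and 0.616 times with its merged exons of 7237 bases.

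Mmp19 was 81.1 to 84.7% of the summed MMP level per kb in control mAMs (n = 4), 34.7 to 66.7% in RXR-deficient mAMs (n = 3) and 4.28 to 4.83% in ImmAMs (n = 3). Mmp8 took 12.9 to 15.5%, 26.5 to 55.7% and 41.3 to 41.7% in the same groups. The share of Mmp12 was 1.45 to 2.604%, 6.42 to 9.17% and 50.5 to 51.8%. With merged exons it was 0.754 to 1.36%, 3.403 to 4.87% and 34.7 to 35.7%, and Mmp8 was the largest share in ImmAMs (56.9 to 57.5%). Mmp19 was thus the main MMP transcript in control mAMs, and Mmp12 and Mmp8 together in ImmAMs. Mmp14 stayed under 1% in all mAM libraries and reached 2.54 to 3.403% in ImmAMs. These shares are a description, since they were computed from the values already compared.

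The summed level of the MMPs was 64.3 to 93.3 CPM per kb in control mAMs, 112 to 224 in RXR-deficient mAMs and 850 to 913 in ImmAMs. Set against the summed TIMPs, which were almost all Timp2, it was 2.88 to 4.38 times as high in control mAMs, 4.85 to 6.62 times in RXR-deficient mAMs and 6.27 to 7.0 times in ImmAMs. The ranges of control and RXR-deficient mAMs did not overlap in the fitted libraries, but mAM_KO replicate 4 had 3.71, within the control range. Those of RXR-deficient mAMs and ImmAMs overlapped. With CPM not divided by length, the ratio was 2.57 to 3.90, 4.14 to 5.54 and 5.23 to 5.87 in the same order of groups. These sums and ratios per kb used the principal transcript, and those with merged exons were not computed. The ratio is of RNA and carries no information on active protein.

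**Figure D3:**
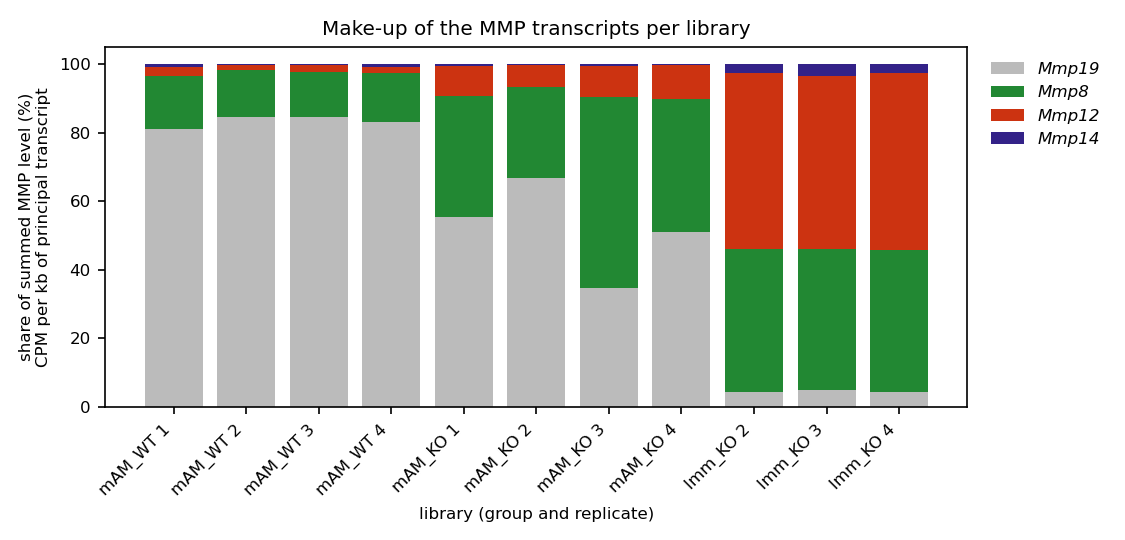
Share in percent of Mmp19, Mmp8, Mmp12 and Mmp14 in their summed CPM per kb of principal transcript, 1 bar for each of the 11 libraries. Mmp19 is over 81% in each control mAM library and under 5% in each ImmAM library.

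The RXR-deficient mAM libraries lay at unequal distances between control mAMs and ImmAMs for different genes. On a linear CPM scale on which the mean of control mAMs is 0% and that of ImmAMs is 100%, Mmp8 was at 5.43 to 32.3% in the 4 RXR-deficient mAM libraries and Mmp12 at 1.29 to 4.26%. Timp2 was at 1.66 to 18.9%, Adam8 at 2.51 to 7.09% and Mmp14 at -0.20 to 2.89%. On the log2 scale the libraries lay nearer to ImmAMs, with Mmp8 at 29.4 to 69.8%, Mmp12 at 28.6 to 46.7%, Timp2 at 4.69 to 37.7%, Adam8 at 21.7 to 38.9% and Mmp14 at -0.0955 to 26.1%, so the order of the genes depended on the scale. Mmp19 was outside both scales, since it was lower in ImmAMs and its mean was higher in RXR-deficient mAMs.

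Genes of the gates and of other macrophages and monocytes were placed on the same linear scale. Itgam was at 0.18 to 3.79%, and Siglecf, which is lower in ImmAMs, at 6.53 to 24.9%. The complement genes C1qa, C1qb and C1qc, which mark interstitial macrophages, were at -0.13 to 1.36%, with C1qa at 0.344 CPM or less in every RXR-deficient mAM library and 24.5 to 29.8 CPM in ImmAMs. On the log2 scale C1qa was at 14.8 to 37.6%, C1qb at -15.0 to 22.4% and C1qc at -4.30 to 35.9%. Itgam was at 2.11 to 26.2%, Siglecf at 2.40 to 10.1% and Ccr2 at -3.53 to 36.5% on that scale. The distance between these genes and the proteases thus also depended on the scale. The summed level of 5 interstitial macrophage genes of 8 was 0.594 to 1.63 CPM in control mAMs, 1.13 to 3.57 in RXR-deficient mAMs 1 to 3 (4.79 in replicate 4) and 170 to 193 in ImmAMs, and that of 6 monocyte genes of 8 was 25.2 to 33.4, 23.6 to 43.2 and 213 to 218. In bulk libraries, more cells of a type and more RNA per cell cannot be told apart, and the part of such cells in the ImmAM values was not tested. Ccr2, a monocyte receptor, was at -1.41 to 16.5% and was highest in replicate 3, which was also highest for Mmp12, Mmp8 and Timp2.

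**Figure D4:**
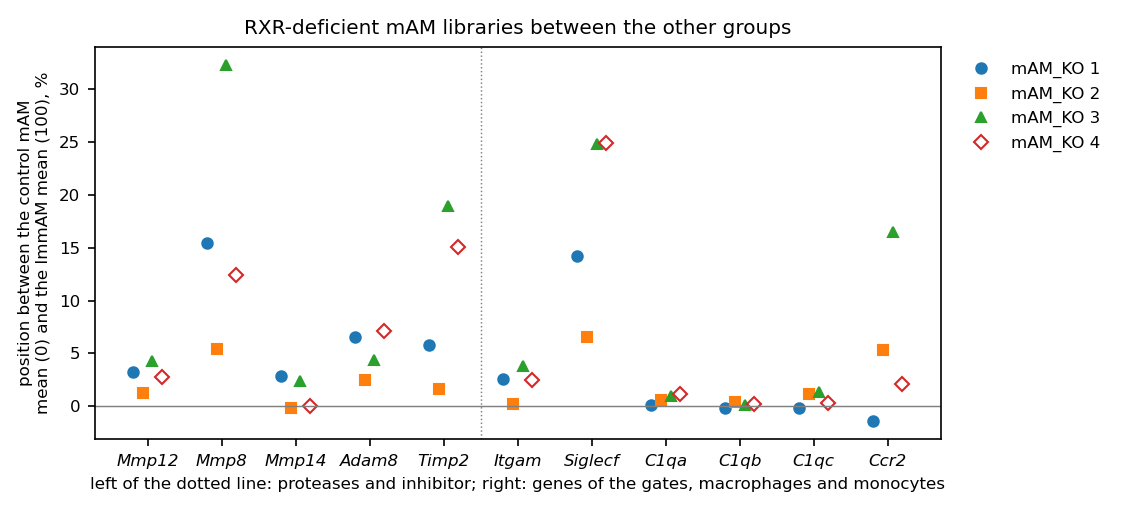
Position of each of the 4 RXR-deficient mAM libraries between the mean of control mAMs (0%) and the mean of ImmAMs (100%), on the CPM scale, for the 5 genes that were higher in ImmAMs (left) and for genes of the gates, macrophages and monocytes (right). Mmp8 reaches 32.3% in replicate 3, where C1qa, C1qb and C1qc are at 1.36% or less. On the log2 scale, which is not drawn, C1qa lies at 14.8 to 37.6% over the 4 libraries.

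Over the 11 libraries, the genes whose log2 levels were most like those of Mmp12 were Cd200r2 and Fgd6 (Pearson's r = 0.998 for both), and for Mmp8 they were Pira2 (0.995) and Ceacam1 (0.992). For Mmp14 they were Mturn and Alpk1 (0.988 for both), for Adam8 Camk2n1 (0.991) and Abtb2 (0.990), and for Timp2 Trpv4 (0.996) and Slc29a3 (0.995). Those for Mmp19 were Cstf3 (0.969) and Mgat5 (0.965), and those for Timp1 Epb41l5 (0.932) and Gnal (0.914). Mmp12 and Mmp8 had an r of 0.983 with each other. The libraries fall into 3 groups, and r mostly follows the group levels.

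Other genes of the pathway were taken from 6 lists of 92 genes, of which 35 were tested here. In RXR-deficient against control mAMs, 3 rose, 2 fell and 30 did not pass, with a median log2 fold change of 0.0046. The 5 called were 14.3% of the 35, where 4.84% of all genes tested were called. Spint1, an inhibitor of cell-surface serine proteases, rose from 1.23 to 20.2 CPM (3.94 ± 0.35 (SE), p-adj = 1.11e-04, limma). Plau, the urokinase that activates plasminogen, rose from 17.98 to 31.5 CPM (0.82 ± 0.17, p-adj = 0.0197, limma). Sdc3, a heparan sulfate proteoglycan, fell from 501 to 387 CPM (-0.37 ± 0.09, p-adj = 0.0355, limma). Mmp2 and Rhbdf1 passed at levels under 5 CPM and are named after their values were seen. Mmp2, the gelatinase that MMP14 activates, had means of 0.368 and 1.52 CPM (1.998 ± 0.43, p-adj = 0.0234, limma) and 0.527 in mAM_KO replicate 4. It ranged from 0.221 to 0.469 CPM in control mAMs and from 0.913 to 2.33 in RXR-deficient mAMs. Mmp2 thus passed the filter of 1 CPM in 3 libraries only with ImmAMs counted. Rhbdf1, which takes part in ADAM17 trafficking, had means of 4.94 and 2.11 CPM (-1.32 ± 0.31, p-adj = 0.0368, limma).

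In ImmAMs against control mAMs, 14 of the 35 rose and 7 fell, with a median of 0.14, and against RXR-deficient mAMs 16 rose and 7 fell, with a median of 0.21. The called genes were 60% and 65.7% of the 35, where 48.1% and 37.9% of all genes were called. Some genes counted as higher, Mmp2 and Thbs1 among them, passed the filter only through ImmAMs, in which they were higher. Of 19 other MMPs, 2 were tested, and Mmp2 rose to 6.07 CPM in ImmAMs (4.10 ± 0.43 (SE) against control mAMs, p-adj = 4.74e-06, limma) while Mmp25 passed in no comparison. Of 12 other ADAM and ADAMTS proteases, none passed between the mAM groups with limma (4 had an unadjusted p under 0.05, and DESeq2 called 1 and edgeR 0), and 5 rose and 1 fell in ImmAMs against control mAMs (50% called, beside 48.1% of all genes). The one that fell was Adamts2, a procollagen processing enzyme, from 36.1 to 5.99 CPM (-2.59 ± 0.15, p-adj = 2.37e-08, limma). None of 4 other metalloproteinase inhibitors was tested.

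Of 9 activators, inducers and clearance receptors of MMPs, 3 rose and 2 fell in ImmAMs against control mAMs (55.6% called, beside 48.1% of all genes), and Plau reached 92.7 CPM (2.39 ± 0.17 (SE), p-adj = 1.14e-07, limma). Of 5 serine protease inhibitors 60% were called: Spint1 rose further to 66.4 CPM (5.82 ± 0.35, p-adj = 2.87e-08, limma) and 2 fell. Of 7 matrix substrates and partners, 4 rose and 2 fell (85.7% called). Thbs1, which encodes thrombospondin 1, rose from 0.389 to 7.95 CPM (4.79 ± 0.75, p-adj = 1.79e-04, limma). It was at 0.0737 to 0.779 CPM in control mAMs and 0.254 to 1.42 in RXR-deficient mAMs. Thbs1 thus passed the filter of 1 CPM only through ImmAMs. Fn1, which encodes fibronectin, had 6789 CPM in ImmAMs and 1503 CPM in RXR-deficient mAMs (2.18 ± 0.12, p-adj = 2.83e-08, limma).

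The positions of the remaining genes in GRCm38 (GENCODE vM21) were chr14:54431612-54445364 for Mmp14, chr10:128790910-128800824 for Mmp19, chr7:139978932-139992562 for Adam8, chr11:118301069-118355740 for Timp2 and chrX:20870166-20874735 for Timp1. Mmp14, Mmp19 and Timp1 are on the plus strand and Adam8 and Timp2 on the minus strand. Timp1 lies within Syn1, Mmp12 overlaps Mmp1b and Mmp19 overlaps Tmem198b and Gm47093, all on the opposite strand. Timp2 overlaps Cep295nl and Adam8 overlaps Mir7062 on the same strand, and Adam8 overlaps Gm16201 on the other. The library kit keeps the strand, and whether the counting used it is not given in the sources used here, so reads of overlapping genes may not be told apart. Of 60-base windows of the genes' transcripts, 0 to 0.398% also occurred in another gene.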

How the data were processed

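RNA-seq of sorted alveolar macrophages was deposited as 1 table of 11 libraries. Per the study's methods and submitters' notes, the authors trimmed 60-base single-end reads with Cutadapt, quantified expected counts with RSEM 1.3.1 on the GRCm38 transcriptome, and deposited CPM values after TMM scaling in limma, for genes at 1 CPM in 3 or more samples. Values were whole reads plus 0.5, times a step per library, and reads were recovered within 0.01 for 100% of values. The depth was 16659960 to 37873532 reads per library. Of the 7 genes, Timp1, Adam8 and Mmp14 had the fewest reads and the least precise values in mAMs.

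Log2 of the deposited CPM values was fitted in limma 3.58.1 (R 4.3.3; 3 group means, variance trend) over 10 libraries and 12889 genes at 1 CPM in at least 3 of them. Each two-sided p was adjusted by the Benjamini-Hochberg method across the 12889 genes, and 0.05 was the threshold. Other settings included edgeR 4.0.16, DESeq2 1.42.0 and limma-voom on recovered reads. Lengths, positions and windows came from GENCODE vM21 and promoters from RefSeq. The length was that of the longest APPRIS principal transcript.

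The members and lists were chosen with earlier results of these data known. Genes named beyond the 7 members were the 2 genes most correlated with each, and, per comparison, up to 6 called list genes of largest fold change whose higher group averaged 5 CPM or more. Genes named outside this rule are marked as such or stand as markers. A gene picked by the rule is left unreported.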

Additional observations from a re-analysis of the deposited data

Results flagged for a closer look

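The library mAM_KO replicate 4, which was not part of the fit, stood above every control mAM library for 4 of the 7 genes: Mmp12 at 50.8 CPM, Mmp8 at 132 CPM, Adam8 at 2.68 CPM and Timp2 at 140 CPM. It was within the range of the other RXR-deficient mAM libraries for Mmp12, Mmp8 and Timp2 and above it for Adam8. With it in the fit, 3 members still passed in RXR-deficient against control mAMs. The share of all genes for which mAM_KO replicate 4 stood above every control mAM library was not computed. The count of 4 of the 7 genes is thus a description without a background to set it against.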

How the results depend on the processing

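No member changed direction under any setting tried. In both ImmAM comparisons 6 members passed under all settings, for all 16 alternatives and without each library in turn. Xist, used as a covariate in 1 setting, was at 119 to 539 CPM in control mAMs, 55.5 to 458 in RXR-deficient mAMs and 302 to 345 in ImmAMs. The labels give no sex and no fitted library lacked Xist, so this setting is not shown to adjust for sex. In RXR-deficient against control mAMs, where 3 passed, 5 did with DESeq2 and 5 with the Xist covariate, and between 2 and 6 when 1 library was left out. The 624 genes called in that comparison became 337 with all 11 libraries, 199 with both groups alone, 122 without a variance trend, 1352 with DESeq2, 315 with a fold of at least 1.5, and 162 to 861 without 1 library (162 without RXR-deficient mAM replicate 3). With a fold of at least 1.5, genes called in ImmAMs were 3438 of 6194 against control mAMs and 2800 of 4891 against RXR-deficient mAMs. With a replicate block 174 genes and 2 members passed between the mAM groups. Replicate numbers showed no consistent pairing, as the r of same-numbered deviations ran from -0.129 to 0.246. Some but not all libraries correlated best with their own number. Whether mAM_KO and Imm_KO libraries came from the same mice is not given in the labels, and these r values cannot settle it. Adam8 between the mAM groups was also lost with both groups alone (p-adj = 0.135, limma), without a variance trend, with limma-voom and under the block. The cause was not tested. The use of merged exons, chosen after seeing the data, lowered Mmp12 over Mmp8 per kb from 0.135 to 0.0671 in control mAMs, 0.218 to 0.109 in RXR-deficient mAMs and 1.24 to 0.616 in ImmAMs. An exact permutation test of 3 libraries against 3 cannot go below 0.1 and was not used. Timp1 was not tested in settings whose filter it failed.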
